A study of Mus musculus with 6 samples.

Results

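The acinar transcription factors are the regulators Ptf1a, Rbpjl, Bhlha15, Nr5a2, Gata4 and Gata6, chosen by symbol because they are known to hold the identity of the enzyme-secreting acinar cell of the exocrine pancreas. All 6 were found among the 44713 genes of the count table, and all 6 passed the filter on low counts that left 12760 genes to test. Islet RNA was sequenced, after removal of ribosomal RNA, from 3 db/db and 3 db/m mice, to compare islet transcriptomes in a model of type 2 diabetes with healthy controls. The db/db mice are labelled Lepr-/- and carry the db mutation of the leptin receptor, which removes its long signalling form, in all tissues, and the db/m littermates are labelled wild type, although their name stands for 1 db allele. The labels give the strain of both groups as C57BL/6, whereas the methods of the study name the stock BKS.Cg-Dock7m+/+Leprdb/Nju, males that were 5 weeks old at the start and were killed after 5 weeks on normal chow. The preparation relied on enzymatic release and a density gradient, with no culture step before lysis, so any exocrine tissue carried along was sequenced too. The paper stained isolated cells for insulin to check that islets for sequencing were free of acinar cells, and reports that most cells were positive. Stained cells and shares of RNA reads are unlike measures.

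Acinar identity is held by a small network of transcription factors. PTF1 is a complex of the basic helix-loop-helix protein Ptf1a, a common E protein, and either Rbpj or its acinar relative Rbpjl, and it binds an E-box and a TTTCCC-like box in front of digestive enzyme genes. Bhlha15, also called Mist1, enlarges the secretory apparatus of the cell, Nr5a2 (LRH-1) is an orphan nuclear receptor that works with PTF1 at enzyme genes, and Gata4 and Gata6 are zinc finger factors needed to form the pancreas and, for Gata6, to keep acinar cells differentiated.

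Libraries held between 15641797 and 20614531 counts, and the markers of the labelled islet cells took few of them. Genes of 34 acinar enzymes took 54.3% to 78.7% of each library, and 8 β-cell markers 0.150% to 4.33%, with the highest β-cell share and the lowest enzyme share both in db/m replicate 1. In bulk RNA, fewer cells of a type and less RNA per cell cannot be told apart. Levels below are counts per 1000000 counts (CPM), scaled by TMM factors, which lay between 0.605 and 1.75, or, as a second scale, reads per 1000000 acinar enzyme reads of the same mouse. On the TMM scale the median log2 fold change of all genes was -0.00093, and without TMM factors it was -0.59, so directions that depend on this step are named.

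The sequences below are shown because they hold the letters of motifs known for these factors, in promoters of enzyme genes and of the regulators themselves. They were read from RefSeq promoters of build GRCm38.p6, 250 bases before to 50 bases after the start of 27025 genes, on both strands, and each window is printed 5′ to 3′ on the strand that carries the motif. An E-box and TTTCCC separated by 4 to 6 or 14 to 16 bases, the layout of a PTF1 element, was present with the E-box CACCTG in 31 genes (0.115%), and 3 of 28 listed enzyme genes with a promoter, including Cela3a, which was not matched in the count table, were among them (10.7%). With the general E-box CANNTG, which includes the first form, the figures were 231 genes (0.855%) and 6 of 28 enzyme genes (21.4%). The motif letters and the bases between them are in capitals. The window of Cela1, an elastase, lies on the minus strand at chr15:100688007-100688036, that of the trypsinogen Prss1 on the minus strand at chr6:41458817-41458846, and that of Ctrb1, a chymotrypsinogen, on the minus strand at chr8:111691193-111691222. Cpa1, a carboxypeptidase, holds the wider layout on the minus strand at chr6:30639198-30639227, and Cel, the bile salt-stimulated lipase, on the plus strand at chr2:28563461-28563490.
Cela1: ttcatgtCACCTGCGCTTTTCCCtgccttc
Prss1: acaagcaCACCTGTGGGTTTCCCcttccca
Ctrb1: atcagagCAGCTGTCCTTTTCCCatgggtt
Cpa1: ccCAGCTGGGACTACTCATTCGGTTTCCCa
Cel: caCAGGTGTGGGATGGTCCATTTTTTCCCa

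The trypsinogen gene Gm5771 has the same 30 letters as Prss1, on the minus strand at chr6:41392263-41392292. None of the 4 regulators with a promoter in the table (Ptf1a, Rbpjl, Bhlha15 and Nr5a2) held either layout, and Gata4 and Gata6 had no entry. The single E-box CACCTG was found in 22.6% of all genes, in 17 of 28 enzyme genes (60.7%) and in Rbpjl, Bhlha15 and Nr5a2. The GATA motif AGATAAG was found in 3.5% of all genes, in 2 of 28 enzyme genes (7.14%), in 2 of 7 other acinar products (28.6%) and in Rbpjl and Nr5a2. Nr5a2 was searched at 2 promoters, and its E-box and GATA motif lie in different ones. In Rbpjl, the GATA motif lies on the plus strand at chr2:164403152-164403181 and the E-box on the minus strand at chr2:164403100-164403129, and the capitals below mark these letters. A match describes these letters only and is no evidence of binding.
Rbpjl, AGATAAG: cgggaccttgaAGATAAGgcttggacagga
Rbpjl, CACCTG: tctgggcagggaCACCTGctgggcagatgt

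All 6 regulators had higher mean CPM in db/db than in db/m, with log2 fold changes between 0.36 and 0.68 and a median of 0.49, where 49.9% of all tested genes were above 0, but the 95% interval of every one reached below 0. None passed edgeR's quasi-likelihood test after Benjamini-Hochberg adjustment, against 0.619% of all tested genes, and none had an unadjusted p under 0.05, against 14.9% (5.04% higher and 9.89% lower). DESeq2 also called none after adjustment, against 707 of 12760 tested genes, and gave 1 member an unadjusted p under 0.05. The share of all genes at that unadjusted threshold in DESeq2 is not given here. Summed over the 6 genes, the level was 508, 551 and 529 CPM in db/db and 241, 342 and 528 CPM in db/m (two-sided exact permutation p = 0.2). As a plain share of the library, the sum was 0.0307%, 0.0547% and 0.0485% in db/db and 0.0420%, 0.0364% and 0.0513% in db/m (two-sided exact permutation p = 0.9). The groups overlapped on the plain share, and the lowest value of all was in db/db replicate 1. Without TMM factors the median log2 fold change of the 6 regulators was 0.046, and that of all tested genes was -0.59.

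**Figure D1:**
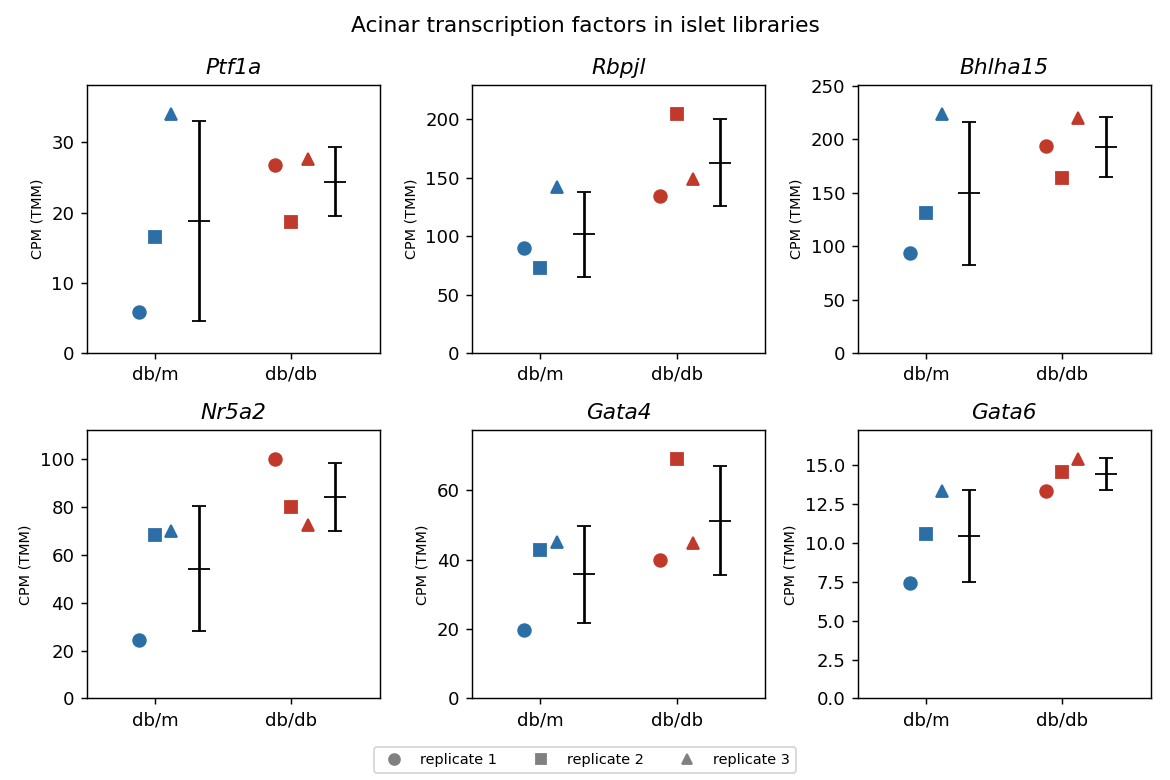
TMM-scaled CPM of each regulator (linear axes from 0) by genotype, with 1 point per mouse, its shape giving the replicate number, and bars for the mean ± SD of 3 mice. The db/m points spread more widely than the db/db points for Ptf1a, Bhlha15, Nr5a2 and Gata6, with db/m replicate 1 lowest of all 6 mice in 5 of the 6 panels.

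Ptf1a, the DNA-binding partner that gives PTF1 its pancreatic specificity, lies on the plus strand of chromosome 2 (19445663 to 19447501, GRCm38). Its level was 26.7, 18.7 and 27.6 CPM in db/db and 5.84, 16.6 and 34.1 CPM in db/m. The db/m mice held both the lowest and the highest value, and the db/db mice lay between them. The means were 24.4 ± 4.91 and 18.8 ± 14.2 CPM (SD, n = 3 each), with a log2 fold change of 0.37 (SE 0.52, 95% interval -0.79 to 1.54, edgeR adjusted p = 0.769). Without TMM factors the value was -0.02, and without db/m replicate 1 it was -0.03. Ptf1aos, an antisense gene that overlaps Ptf1a on the opposite strand, was not among the genes of the count table.

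Rbpjl, the acinar-restricted member of the complex that takes the place of Rbpj in mature acinar cells, lies on the plus strand of chromosome 2 (164403141 to 164415448). It read 134, 204 and 149 CPM in db/db and 89.7, 73.0 and 142 CPM in db/m. The db/db values were higher except that db/m replicate 3 lay above db/db replicate 1. Its log2 fold change of 0.68 had the smallest p of the 6 (means 163 ± 37.0 and 102 ± 36.2 CPM, SD, n = 3 each, SE 0.32, 95% interval -0.04 to 1.39, edgeR unadjusted p = 0.0607, adjusted p = 0.359). Without TMM factors the change was 0.18. Matn4, which overlaps Rbpjl on the opposite strand, had 58 to 170 reads per library against 1253 to 3420 for Rbpjl, and whether the counting used the strand is not given in the sources used here.

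Bhlha15, which directs genes of granule transport and of the endoplasmic reticulum, lies on the plus strand of chromosome 5 (144190286 to 144194441). Its level was 193, 164 and 219.7 CPM in db/db and 94.0, 131 and 224 CPM in db/m. The highest value of the 6 mice belonged to db/m replicate 3, and the groups overlapped. The log2 fold change was 0.36 (means 192 ± 27.8 and 149.6 ± 66.8 CPM, SD, n = 3 each, SE 0.34, 95% interval -0.41 to 1.13, edgeR adjusted p = 0.646), and without TMM factors it was -0.11.

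Nr5a2 lies on the minus strand of chromosome 1 (136842571 to 136960448). Its level was 100.03, 80.1 and 72.2 CPM in db/db and 24.3, 68.4 and 70.0 CPM in db/m. Here the groups did not overlap, although the nearest mice of the 2 groups differed by only 72.2 against 70.0 CPM, and db/m replicate 1 stood far below the rest. The log2 fold change was 0.63 (means 84.1 ± 14.3 and 54.2 ± 26.0 CPM, SD, n = 3 each, SE 0.38, 95% interval -0.23 to 1.50, edgeR adjusted p = 0.478), and without TMM factors it was 0.17.

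Gata4 lies on the minus strand of chromosome 14 (63198922 to 63271692), and its level was 39.9, 69.1 and 44.8 CPM in db/db and 19.7, 42.8 and 45.0 CPM in db/m. The mouse db/db replicate 2 stood above the others and db/m replicate 1 below them, while the rest lay close together (log2 fold change 0.52, SE 0.35, 95% interval -0.28 to 1.32, edgeR adjusted p = 0.523). Without TMM factors the change of Gata4 was 0.11. Gata6, on chromosome 18, was the lowest regulator, with 13.33, 14.5 and 15.4 CPM in db/db and 7.45, 10.5 and 13.32 CPM in db/m. The Gata6 groups were separated only by the second decimal (log2 fold change 0.47, SE 0.26, 95% interval -0.12 to 1.06, edgeR adjusted p = 0.446), and without TMM factors the change was -0.02. A noncoding gene on the opposite strand of Gata6, 1010001N08Rik, had 103, 59 and 113 reads in db/db and 23, 78 and 31 in db/m, against 166 to 246 reads of Gata6. Both factors are also made by stromal and mesothelial cells: 8 stromal markers summed to 37.8, 51.8 and 69.3 CPM in db/db and 52.3, 11.6 and 7.63 CPM in db/m, and 3 mesothelial markers to 0.161 to 4.04 CPM in any mouse, with Msln at 0 reads in db/db replicates 1 and 3 and Upk3b at 0 in all mice but 1. Of the stromal markers 1 was called by DESeq2 and none by edgeR, and the part of these cells in the Gata values was not tested. Nr5a2 and Gata6 were thus the 2 of 6 regulators with every db/db value above every db/m value, against 8.53% of all tested genes (21.1% in either direction). As plain shares of the library, without TMM factors, the groups of both genes overlapped.

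Compared per length of exon, as TMM CPM per kilobase, Bhlha15 was the highest regulator in every mouse, with 55.1 ± 7.96 in db/db and 42.8 ± 19.1 in db/m (SD, n = 3 each). Rbpjl was the next in all 6 mice (28.4 ± 6.45 and 17.7 ± 6.32). Ptf1a (16.2 ± 3.26 and 12.5 ± 9.44), Nr5a2 (14.3 ± 2.43 and 9.19 ± 4.40) and Gata4 (13.1 ± 4.01 and 9.18 ± 3.59) changed places from mouse to mouse and did not differ beyond their spread. Gata6 was last in all 6 mice, at 2.22 ± 0.16 and 1.60 ± 0.45. The PTF1-specific subunit Rbpjl thus stood above its partner Ptf1a in each mouse, by 28.4 against 16.2 CPM per kilobase in db/db. Among the tested genes with a length, the mean level of Bhlha15 lay at percentile 98.3 and that of Gata6 at percentile 53.5.

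The enzyme reads, which the regulators were to be set against, took 78.7%, 71.9% and 71.9% of the db/db libraries and 54.3%, 66.8% and 69.8% of the db/m libraries. Every db/db value was above every db/m value, by 10.5 percentage points on average (74.2 ± 3.91% and 63.6 ± 8.25%, SD, n = 3 each, two-sided exact permutation p = 0.1, the smallest p this design allows). Without db/m replicate 1 the difference was 5.84 points. Of the 34 enzyme genes, 31 had a log2 fold change above 0 with a median of 0.79, and 6 passed the adjusted test as higher, against 0.133% of all tested genes. All of these were trypsinogens, the precursors of trypsin, led by Gm10334 (log2 fold change 7.57), Gm5771 (6.04) and Gm2663 (4.15, edgeR adjusted p 2.8e-04, 0.00242 and 0.00449). Of the 50-base stretches of these 3 genes, 55.4% to 83.5% also occur in other genes, so reads may be split among copies. The 22 enzymes outside the trypsinogen family had a median of 0.68 and no call in edgeR (0 also at an unadjusted p under 0.05, and 1 call with DESeq2), next to 0.49 for the regulators. The lowest enzyme estimates were in the amylases Amy2a2 (-0.68, edgeR adjusted p = 0.617), Amy2a4 (-0.69, adjusted p = 0.657) and Amy2b (-0.10, adjusted p = 0.948), none of which passed. Here too reads may be split among copies, since 100% of the 50-base stretches of Amy2a2 and Amy2a4 and 40.25% of those of Amy2b occur in other genes. Amy2a2 had 19 to 94 reads per library and Amy2a4 11 to 53. Among 12 other acinar products, with a median of 0.59, none passed edgeR's adjusted test, while DESeq2 called 1. In edgeR 1 had an unadjusted p under 0.05, against 14.9% of all tested genes. Sycn, a zymogen granule protein, had 1.33 (SE 0.50, edgeR adjusted p = 0.262, DESeq2 adjusted p = 0.00529), Erp27, an endoplasmic reticulum protein, 0.84 (adjusted p = 0.339), and Tmed11, a cargo receptor of the early secretory pathway, -0.23 (adjusted p = 0.876).

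**Figure D2:**
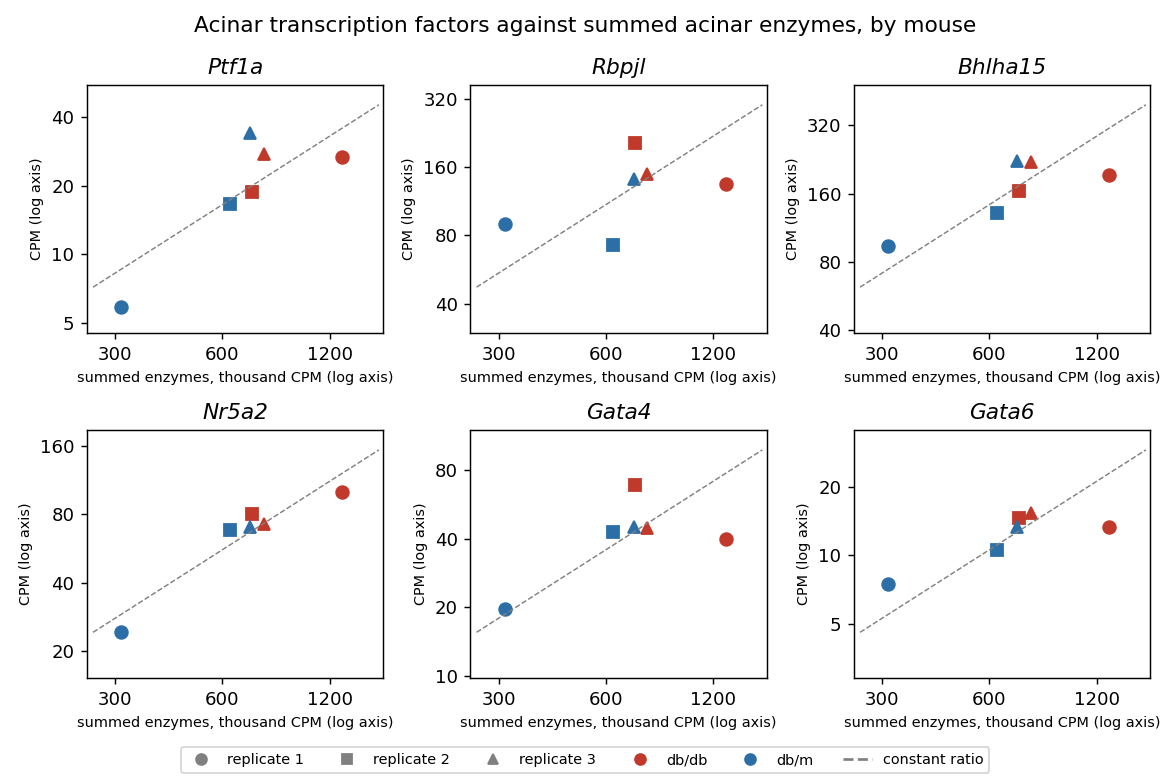
TMM CPM of each regulator (log axis) against the summed CPM of 34 acinar enzymes (log axis, where TMM factors below 1 raise the values), with 1 point per mouse and a dashed line of constant regulator-to-enzyme ratio. Nr5a2 stays closest to the line over the 6 mice, and db/db replicate 1, the mouse with the most enzyme reads, lies under the line in all 6 panels.

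Over the 6 libraries, which share their TMM factor with the enzyme sum, Pearson's r between log2 CPM of a regulator and of the summed enzymes was 0.95 for Nr5a2, 0.85 for Ptf1a, 0.81 for Gata6, 0.79 for Bhlha15, 0.64 for Gata4 and 0.48 for Rbpjl, given as a description. Nr5a2 also had the smallest spread per enzyme read. The highest mouse exceeded the lowest by 4.12-fold for Nr5a2 in CPM and by 1.44-fold per enzyme read, while the enzyme sum itself spanned 4.18-fold. For Ptf1a the span went from 5.84-fold to 2.53-fold, and for Gata4 from 3.51-fold to 3.11-fold. Rbpjl spanned 2.80-fold in CPM and 2.79-fold per enzyme read, so dividing by the enzymes left its spread as it was. Gata6 went from 2.07-fold to 2.34-fold.

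Set against the enzyme reads of the same mouse, all 6 regulators had estimates below 0 with intervals that included 0. The log2 fold changes per enzyme read lay between -0.33 and -0.02 with a median of -0.13, whereas over all tested genes the median was -0.85, and 93.8% of genes were below 0. None of the 6 passed edgeR's adjusted test, against 0.392% of all tested genes (0.0549% higher and 0.337% lower), and none had an unadjusted p under 0.05, against 22.8%. On this scale the groups overlapped for all 6.

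**Figure D3:**
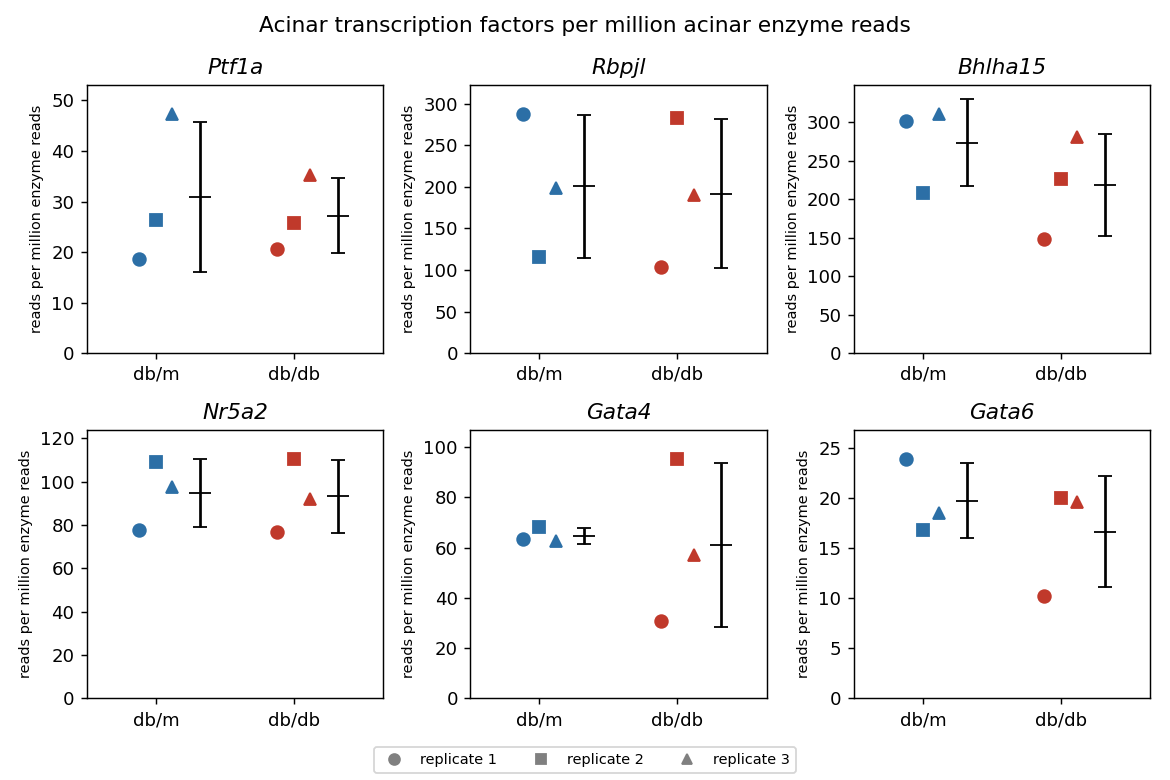
Level of each regulator in reads per 1000000 acinar enzyme reads of the same mouse (linear axes from 0) by genotype, with 1 point per mouse and bars for the mean ± SD of 3 mice. The groups overlap in all 6 panels, and db/db replicate 1 is the lowest of the 6 mice for every regulator but Ptf1a.

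Nr5a2 was the nearest to a fixed ratio, with 76.8, 110.5 and 92.2 reads per 1000000 enzyme reads in db/db and 77.9, 109 and 97.4 in db/m. The 3 values of one genotype lay beside the 3 of the other, and the log2 fold change was -0.02 (SE 0.37, 95% interval -0.84 to 0.79, edgeR adjusted p = 0.963). Bhlha15 had the lowest estimate, with 149, 226 and 280.4 reads per 1000000 enzyme reads in db/db and 302, 208 and 311 in db/m. A pair of db/m mice lay above all db/db mice and db/m replicate 2 lay among them (log2 fold change -0.33, SE 0.37, 95% interval -1.14 to 0.49, edgeR adjusted p = 0.524).

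Ptf1a stood at 20.5, 25.8 and 35.3 reads per 1000000 enzyme reads in db/db and at 18.7, 26.4 and 47.4 in db/m (log2 fold change -0.18, 95% interval -1.22 to 0.85). Both extremes were again db/m mice. Rbpjl stood at 103, 282 and 190 in db/db and at 288, 116 and 198 in db/m (log2 fold change -0.06, 95% interval -1.08 to 0.95). Both genotypes ranged from about the same low to about the same high value, and the mouse with the most reads per enzyme read was db/m replicate 1, the one that was lowest for Ptf1a.

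Gata4 stood at 30.6, 95.4 and 57.2 reads per 1000000 enzyme reads in db/db and at 63.3, 68.1 and 62.6 in db/m (log2 fold change -0.08, 95% interval -1.08 to 0.91). The db/m mice spanned only 1.09-fold, inside the 3.11-fold span of the db/db mice. Gata6 stood at 10.2, 20.0 and 19.7 in db/db and at 23.9, 16.8 and 18.5 in db/m (log2 fold change -0.25, 95% interval -1.25 to 0.76). Without db/db replicate 1 the median of the 6 log2 fold changes per enzyme read was 0.05 in place of -0.13. With the geometric mean of the enzymes in place of their sum, which gives the trypsinogens the weight of any other gene, the 6 values lay between -0.98 and -0.67 and the smallest edgeR adjusted p was 0.0527, in a fit that called 6238 of all 12760 genes (6225 lower), whereas with the trypsinogens also left out, an alternative chosen after seeing the data, they lay between -0.21 and 0.11.

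**Figure D4:**
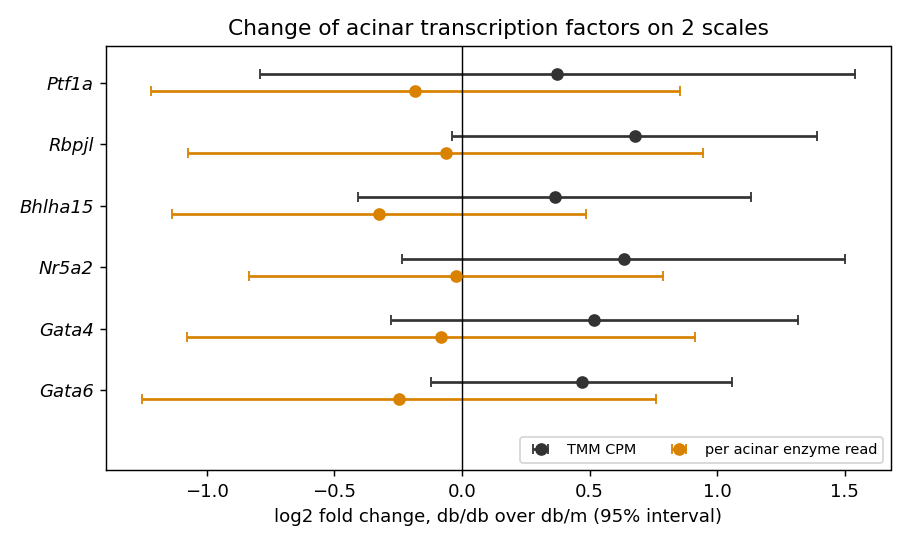
Log2 fold change of each regulator, db/db over db/m (horizontal axis), in TMM CPM and per acinar enzyme read, with 95% intervals from the edgeR fits of 3 mice against 3. All 6 points lie to the right of 0 in CPM and to the left of 0 per enzyme read, and all 12 intervals include 0.

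Ratios of counts between regulators need no scaling, since both genes come from the same library. Over all 15 pairs the groups overlapped, with two-sided exact permutation p of 0.5 or more and 1 after Benjamini-Hochberg adjustment, and the smallest p the design allows is 0.1. The ratio of the PTF1 subunits Ptf1a and Rbpjl was 0.199, 0.0915 and 0.185 in db/db and 0.0651, 0.227 and 0.239 in db/m, a span of 3.68-fold that was the widest of all pairs. The low values came from 1 mouse of each genotype. The narrowest was Bhlha15 to Gata6, with 14.5, 11.3 and 14.3 in db/db and 12.6, 12.4 and 16.8 in db/m. The paralogs Gata4 and Gata6 stood at 2.99, 4.76 and 2.91 in db/db and at 2.65, 4.06 and 3.38 in db/m, with Gata4 ahead in every mouse. As a description over the 6 libraries, the highest correlation of log2 CPM between regulators was that of Ptf1a and Bhlha15 (r = 0.97), and the lowest that of Rbpjl and Nr5a2 (r = 0.50).

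Among 11557 tested genes with a mean of at least 1 CPM, the genes most like each regulator over the 6 libraries were ranked by Pearson's r of log2 CPM, with no test. They were Edem3, Pcmtd1 and Smim13 for Ptf1a, Polr3b, Ifngr2 and Rnpep for Rbpjl, Aldh7a1, Neu2 and Zfp961 for Bhlha15, Ammecr1, St6galnac2 and Yap1 for Nr5a2, Zc3hc1, Ano1 and Pcsk7 for Gata4, and Ggt1, Slc39a5 and Gm13157 for Gata6, with r between 0.979 (Pcsk7) and 0.998 (Ggt1). The median r with the 34 enzymes was 0.90 for Nr5a2, 0.81 for Ptf1a, 0.78 for Gata6, 0.77 for Bhlha15, 0.61 for Gata4 and 0.46 for Rbpjl, against 0.02 to 0.05 over all genes. Among the r of all genes with the same regulator, these enzyme medians lay between percentile 74.9 (Rbpjl) and percentile 95.8 (Nr5a2). With 6 points and 11557 genes, high values of r arise readily.

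Other genes of the pathway stand around the regulators, beginning with the secretory programme of Bhlha15. All 4 of the targets listed here had a log2 fold change above 0, against 49.9% of all tested genes, with a median of 0.39. None passed the adjusted test of edgeR or of DESeq2, while 1 had an unadjusted p under 0.05 in edgeR, against 14.9% of all tested genes. Rab26, a small GTPase of secretory granules, had 15.8, 12.5 and 15.1 CPM in db/db and 8.48, 4.95 and 10.9 CPM in db/m. Every db/db value was above every db/m value, as for 8.53% of all tested genes. The log2 fold change of Rab26 was 0.83 (SE 0.31, edgeR unadjusted p = 0.0229, adjusted p = 0.248), with Traf7 overlapping it in the genome. The granule GTPase Rab3d had 0.25, the gap junction protein Gjb1 0.54, and the Golgi calcium pump Atp2c2 0.23, with adjusted p of 0.742, 0.484 and 0.784 in edgeR. Without TMM factors Rab3d and Atp2c2 were below 0, and the groups of Rab26 overlapped with a change of 0.23.

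The partners and antagonists of the regulators gave no call among 9 tested of 11 genes in edgeR or in DESeq2, with a median log2 fold change of -0.16. None had an unadjusted p under 0.05 in either, against 14.9% of all tested genes in edgeR. Rbpj, which Rbpjl replaces in PTF1, had 0.22. The E proteins, which pair with Ptf1a and Bhlha15, had 0.29 for Tcf3, 0.21 for Tcf12 and -0.30 for Tcf4, and the first 2 of these, like Rbpj, were below 0 without TMM factors. The Id proteins capture E proteins and keep them from DNA: Id1 had -0.90 and Id2 -0.41, while Id3 had 2 to 38 reads per library and was not tested. The Notch target Hes1 had -0.40, and Nr0b2, a repressor that binds Nr5a2, had -0.16. Of the GATA cofactors, Zfpm1 had 0.61 (edgeR adjusted p = 0.496) and Zfpm2 had at most 1 read in any library.

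Of 11 tested regulators of other steps of pancreatic identity, none passed edgeR's adjusted test, while 1 was higher and 3 were lower at an unadjusted p under 0.05. Of all tested genes, 5.04% were higher and 9.89% lower at that threshold. Xbp1, a driver of endoplasmic reticulum growth that acinar cells need, had 438, 311 and 282 CPM in db/db and 169, 199 and 239 CPM in db/m. All 3 db/db mice lay above the db/m mice, as for 8.53% of all tested genes. The log2 fold change of Xbp1 was 0.76 (SE 0.29, edgeR unadjusted p = 0.0266, adjusted p = 0.265), but without TMM factors its groups overlapped and the change was 0.17. Creb3l1, another factor of secretory cells bound to the endoplasmic reticulum, had 0.06. The lower genes were homeobox factors: Prox1 had 8.51, 10.6 and 8.27 CPM in db/db and 21.7, 29.6 and 13.5 CPM in db/m (log2 fold change -1.24, SE 0.31, edgeR adjusted p = 0.108). Pdx1, high in β-cells and low in acinar cells, had 6.98, 7.29 and 8.88 CPM in db/db and 41.4, 14.5 and 16.2 CPM in db/m (log2 fold change -1.64, SE 0.41, edgeR adjusted p = 0.108). Mnx1, a β-cell factor, had 0, 12 and 1 reads in db/db and 77, 24 and 27 in db/m (log2 fold change -2.75, edgeR adjusted p = 0.223), where 0 reads allow up to 0.146 CPM before TMM scaling.

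The db/db values of Prox1, Pdx1 and Mnx1 were all below those of db/m, as for 12.6% of all tested genes. DESeq2 called Prox1 and Pdx1 (adjusted p = 0.0165 and 0.00754), and edgeR without the filter on low counts called all 3, Mnx1 at an adjusted p of 0.0308. Those fits also called more genes in all, 707 of 12760 (559 lower) with DESeq2 and 888 of 23506 (739 lower) without the filter, against 79 of 12760. The β-cell markers had the same direction between the groups as these 3 genes. Of these markers, 8 of 8 had a log2 fold change below 0, and 3 were called lower by edgeR, against 0.486% of all tested genes. The sum of these markers was 2476, 6446 and 5278 CPM in db/db and 24884, 7540 and 7856 CPM in db/m (two-sided exact permutation p = 0.1), and its part in the 3 homeobox genes was not tested. The remaining regulators had log2 fold changes of 0.64 for Hnf4a, -0.12 for Foxa2, 0.91 for Foxa3, 0.36 for Onecut1, 0.53 for the duct factor Sox9 and 0.25 for Myc. None of these 6 passed, and Onecut1, Sox9, Myc and Creb3l1 were below 0 without TMM factors. Foxa1 had no reads in db/db and 6, 2 and 9 in db/m, and was not tested.

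**Figure D5:**
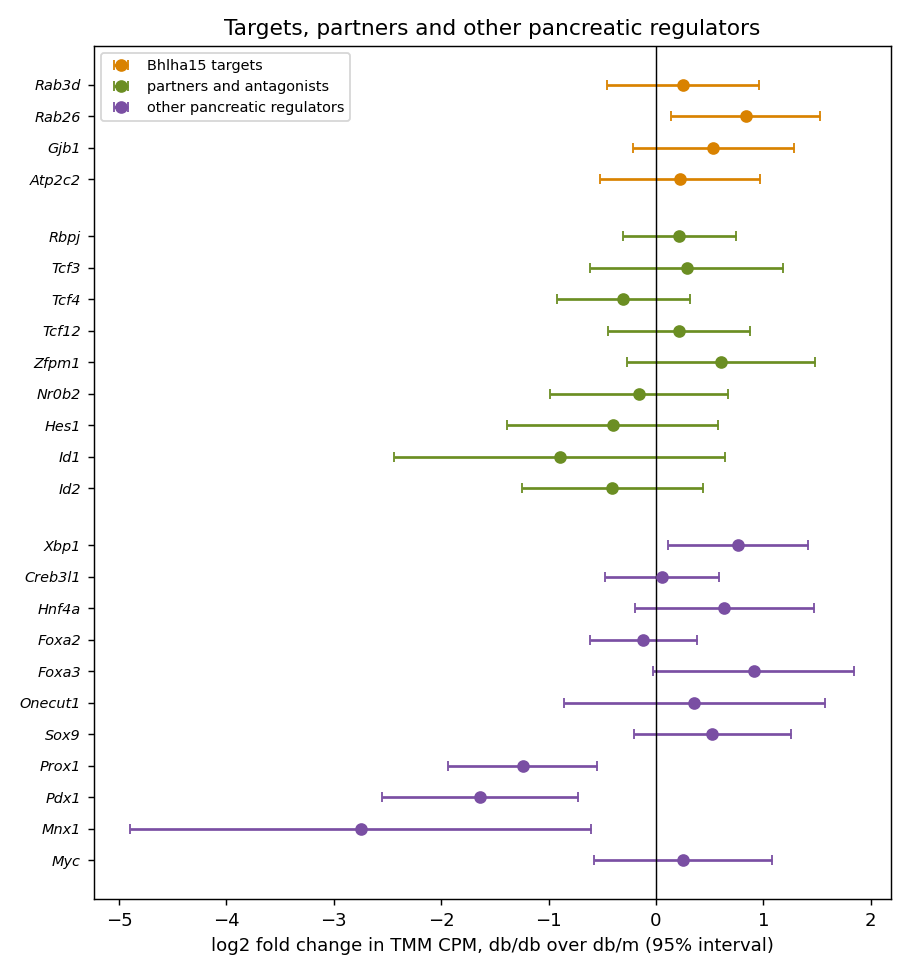
Log2 fold change in TMM CPM, db/db over db/m (horizontal axis, with 95% intervals from edgeR, 3 mice against 3), of 4 Bhlha15 targets, 9 partners and antagonists, and 11 other pancreatic regulators. Rab26 and Xbp1 have intervals above 0 and Prox1, Pdx1 and Mnx1 below 0, all before adjustment, while every other interval includes 0.

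Markers of other cell types varied among the same mice. The 6 duct markers summed to 202, 210.3 and 161 CPM in db/db and 106, 126 and 170.4 CPM in db/m. Endocrine markers other than those of β-cells summed to between 261 and 1659 CPM, endothelial markers to between 9.71 and 33.8 CPM, and 5 leukocyte markers to 54.1, 14.5 and 65.2 CPM in db/db and 37.8, 8.10 and 3.03 CPM in db/m. No gene of these 4 lists passed the adjusted test of edgeR or of DESeq2, with 6 duct, 5 non-β endocrine, 4 endothelial and 4 leukocyte genes tested. In edgeR 5 had an unadjusted p under 0.05, against 14.9% of all tested genes, and they went both ways. Krt19 (log2 fold change 1.29), Spp1 (1.24) and Lyz2 (2.16) were higher, and Krt7 (-1.34) and Kdr (-1.31) were lower. The part of these cell types in the levels of the regulators was not tested. Over the mice left out in turn, the median log2 fold change of the 6 regulators in CPM moved most without db/m replicate 1, to 0.27, and without db/m replicate 3, to 0.83. In the latter fit 4 regulators had an unadjusted p under 0.05 in edgeR and none an adjusted one. With a per-mouse score of the enzymes as a covariate, 5 of 6 regulators were below 0 in db/db, 1 had an unadjusted p under 0.05 in edgeR (0.0221) and none passed. The score weights the 34 enzymes alike, trypsinogens included, and so carries part of the genotype difference. The share of all tested genes with an unadjusted p under 0.05 was 14.9% in the main edgeR fit. For these 2 fits that share is not given here.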

How the data were processed

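Gene counts were deposited by the authors as raw reads per gene symbol, 1 column per mouse, without normalization. The study's methods give removal of adaptors and low-quality reads, mapping to mm10 with TopHat, and DESeq, whereas the submitters' processing notes name HISAT2 2.0.4; the counter, the annotation and the strand setting are not given in the sources used here. Replicates are mice, as numbered in the titles.

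The tests used edgeR 4.0.16 under R 4.3.3, with genes kept by filterByExpr, TMM factors, the quasi-likelihood F-test and Benjamini-Hochberg adjustment over 12760 genes (threshold 0.05). SE is the size of the log2 fold change over the square root of F. The same fit used the summed enzyme counts as library size for values per enzyme read. Single values were compared by exact permutation. DESeq2 1.42.0 and other alternatives were run, and scripts were tested on simulated data. Floors (3 counts) and intervals on shares cover counting error only. Positions come from the GENCODE annotation of GRCm38, and matplotlib 3.10.9 drew the figures.

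Named genes were the 6 regulators, every gene with counts among their targets, partners and other regulators, the 3 enzymes and 2 other acinar products with the smallest p in each direction, and the 3 genes most correlated with each regulator. The members and lists were chosen with earlier results of these data known. Cela3a and Adgre1 were not matched by symbol, and some listed genes are not reported here.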

Additional observations from a re-analysis of the deposited data

How the results depend on the processing

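No regulator passed the adjusted threshold under any alternative run, in CPM or per enzyme read. The count of all genes called, 79 (17 higher, 62 lower), was 707 with DESeq2 (148 higher, 559 lower), 21 without TMM factors, 52 with upper-quartile factors, 888 without the filter on low counts, 20 with the enzyme score as covariate (11 higher, 9 lower), and 10 to 333 with 1 mouse left out. The 6 enzymes called were 3 to 7 with 1 mouse left out, and 3 without any 1 of the db/db mice. Same-numbered mice did not deviate together (correlations -0.49, -0.13 and -0.31), so the numbers were not taken to pair them; with the replicate number as a block, 16 genes (4 higher, 12 lower) and 3 enzymes were called, and Amy2b moved to 0.010. Log2 fold changes of regulators that turned were, without TMM factors, Ptf1a -0.021, Bhlha15 -0.11 and Gata6 -0.023, and with the covariate, Ptf1a -1.42, Bhlha15 -0.50, Nr5a2 -0.72, Gata4 -0.062 and Gata6 -0.050. This covariate itself carries part of the genotype difference. Other genes that turned without TMM factors were Rab3d -0.28, Atp2c2 -0.35, Rbpj -0.40, Tcf3 -0.36, Tcf12 -0.33, Creb3l1 -0.51, Onecut1 -0.019, Sox9 -0.0079 and Myc -0.29. Per enzyme read, the geometric mean without trypsinogens, chosen after seeing the data, gave Rbpjl 0.042, Nr5a2 0.11 and Gata4 0.040. With 1 mouse left out, the ranges in CPM were -0.027 to 1.14 for Ptf1a, -0.0019 to 0.59 for Atp2c2, -0.48 to 0.038 for Nr0b2, -0.63 to 0.17 for Hes1, -0.023 to 0.27 for Creb3l1, -0.073 to 0.96 for Onecut1, -1.03 to 0.20 for Amy2a2, -0.98 to 0.31 for Amy2a4, -0.46 to 0.34 for Amy2b and -0.63 to 0.29 for Tmed11. Per enzyme read they were -0.44 to 0.27 for Ptf1a, -0.45 to 0.29 for Rbpjl, -0.16 to 0.097 for Nr5a2, -0.56 to 0.24 for Gata4 and -0.40 to 0.0090 for Gata6. The cause of these changes was not tested. A comparison of 3 mice with 3 cannot give an exact permutation p below 0.1, and the intervals of the regulators in CPM allow changes from a fall to a rise of over 1 on the log2 scale.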
